A study of Mus musculus with 20 samples.

Results

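The ileum of antibiotic-treated (TDD+ABX) and untreated (TDD) mice, all fed a tryptophan-deficient diet, was compared across all genes measured by RNA sequencing. The comparison used every mouse of both groups, 5 TDD mice and 5 TDD+ABX mice, which were 10 of the 20 mice in the series. The other 10 mice had a control amino acid diet (CD) without or with the same antibiotics, and they served here only to set the antibiotic effect on TDD beside that on CD. All mice were wild-type female C57BL/6 mice (C57Bl6 in the sample labels), 7 weeks old, housed under specific pathogen-free (SPF) conditions and fed CD or TDD for 3 weeks. TDD was the control amino acid diet without tryptophan, so both groups compared here lacked dietary tryptophan. ABX was a cocktail of ampicillin, vancomycin, gentamycin, metronidazole and neomycin in drinking water made palatable with sucrose, and the water given to untreated mice was not given in the sources used here. A single small piece of ileum was taken from each mouse near the cecum, and its poly-A RNA was sequenced, so that epithelium, immune cells and muscle were measured together. Total estimated counts per mouse ranged from 37664356 to 58618713 in TDD mice and from 41198920 to 50576414 in TDD+ABX mice. Mitochondrial genes held 6.78% to 8.14% of counts in TDD mice and 5.96% to 6.685% in TDD+ABX mice. The 10 most abundant genes held 8.81% to 10.2% in TDD mice and 7.43% to 8.16% in TDD+ABX mice. The part of these differences in the results was not tested.

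Gut bacteria are known to be sensed by the intestinal epithelium, which answers with secreted antimicrobial lectins, and by lymphocytes and plasma cells beneath it, which supply immunoglobulin A (IgA) to the lumen. Bacteria also deconjugate and transform bile acids, which enterocytes of the distal ileum take back up, and bile acids in turn act on the nuclear receptor FXR. Tryptophan is an essential amino acid, and cells short of an amino acid translate more of the transcription factor ATF4, whose targets include amino acid transporters and aminoacyl-tRNA synthetases.

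The tissue label was checked against marker genes before the groups were compared. Epithelial Epcam lay between 1518 and 2058 CPM (counts scaled to library size, normalised for library composition) in the 10 mice, and the groups overlapped (log2 fold change -0.01, standard error 0.14). Gata4, a transcription factor of the proximal small intestine that is normally absent from the distal ileum, was at 89.0 to 109 CPM in TDD mice and 91.8 to 108 CPM in TDD+ABX mice. The ileal bile acid carriers Slc10a2 and Fabp6 were at 3.69 to 8.80 and 0.238 to 3.91 CPM in TDD mice. Other markers were mixed, with the proximal genes Slc40a1 and Cybrd1 at 7.65 ± 0.479 and 5.85 ± 0.968 CPM and the bile acid exporter gene Slc51b at 72.8 ± 14.0 CPM in TDD mice (mean ± SD, n = 5). The position along the small intestine was therefore not settled by these marker genes. The groups overlapped in Gata4 and Cybrd1 (log2 fold change -0.35, q = 0.115, edgeR). Slc40a1 was lower in TDD+ABX mice at 5.21 ± 1.04 CPM, with no overlap (-0.55, q = 0.00616), and the proximal gene Fabp1 had a log2 fold change of -0.76 (q = 0.073). Markers of the colon were mixed. Car4 was higher (0.89, q = 0.00973), Slc37a2 was lower (-0.60, q = 0.0263), Car1 was at most 0.0251 CPM in the 10 mice, and Hoxb13 and Hoxd12 were not tested. The part of these position markers in the results for Slc10a2 and Fabp6 was not tested.

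A few mice stood apart in the cells or tissue they contained. The summed level of B cell markers, Ms4a1, Cd79a, Cd79b and Pax5 among them, was 4.42, 88.3, 61.5, 130 and 104 CPM in TDD mice 1 to 5, and 10.3, 20.9, 5.25, 3.56 and 87.4 CPM in TDD+ABX mice 1 to 5. TDD mouse 1 was thus as low as most TDD+ABX mice, and TDD+ABX mouse 5 was as high as most TDD mice. Liver transcripts, recognised after the values were seen, were found in TDD mice 4 and 5, where albumin (Alb) was at 14.9 and 11 CPM against at most 0.168 CPM in the other 8 mice. Alb, Mug1, Mup20 and Serpina3k were among the genes called lower with ABX and were above 1 CPM only in these 2 of the 10 mice. CD+ABX mice 1 and 2 held them too, with a summed level of 16.8 and 18.0 CPM for these 4 genes. Wherever mice with liver transcripts were left out, all 4 mice were. That setting compared TDD mice 1 to 3 with all 5 TDD+ABX mice. The mice it removed from TDD, 4 and 5, also had the highest B cell marker sums of the 10 mice. For calls lost in that setting, the parts of fewer mice, B cell content and liver transcripts were not tested.

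**Figure D1:**
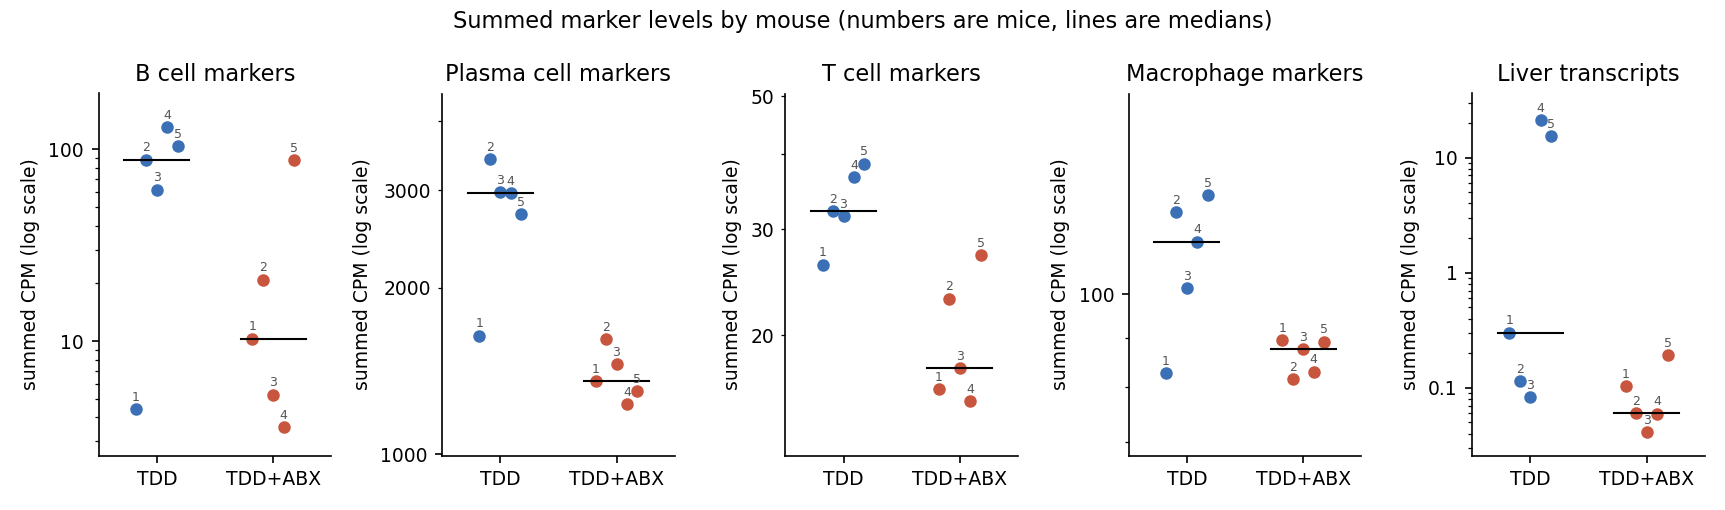
Summed CPM (vertical axes) of marker genes of B cells, plasma cells, T cells and macrophages and of liver transcripts, on log axes, with 1 numbered point per TDD or TDD+ABX mouse and lines at the group medians. B cell markers were at 4.42 CPM in TDD mouse 1 and reached 87.4 CPM in TDD+ABX mouse 5, and liver transcripts were above 15 CPM only in TDD mice 4 and 5 among the 10 mice compared.

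ABX changed 272 of 16306 genes tested in TDD-fed mice, or 1.67%. A gene was called where edgeR's quasi-likelihood test gave a p-value under 0.05 after Benjamini-Hochberg adjustment (q) and its level differed by at least 2-fold. Of these, 61 genes were higher (0.374% of genes tested) and 211 were lower (1.29%) in TDD+ABX mice. Without the fold limit, 1172 genes were higher (7.19%) and 1353 lower (8.3%), so that most changes were smaller than 2-fold. The median log2 fold change of all genes tested was -0.03. The CPM ranges of TDD and TDD+ABX mice were separate for 1796 genes (11% of genes tested), among them 37 of the 61 called higher and 79 of the 211 called lower. The number called was 145 (62 higher and 83 lower) without the 4 mice that had liver transcripts, and 176 (76 higher and 100 lower) with the B cell markers as a covariate. Leaving out single mice gave 173 genes without TDD+ABX mouse 1, 174 without TDD+ABX mouse 3, 409 without TDD mouse 1 and 427 without TDD+ABX mouse 5.

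**Figure D2:**
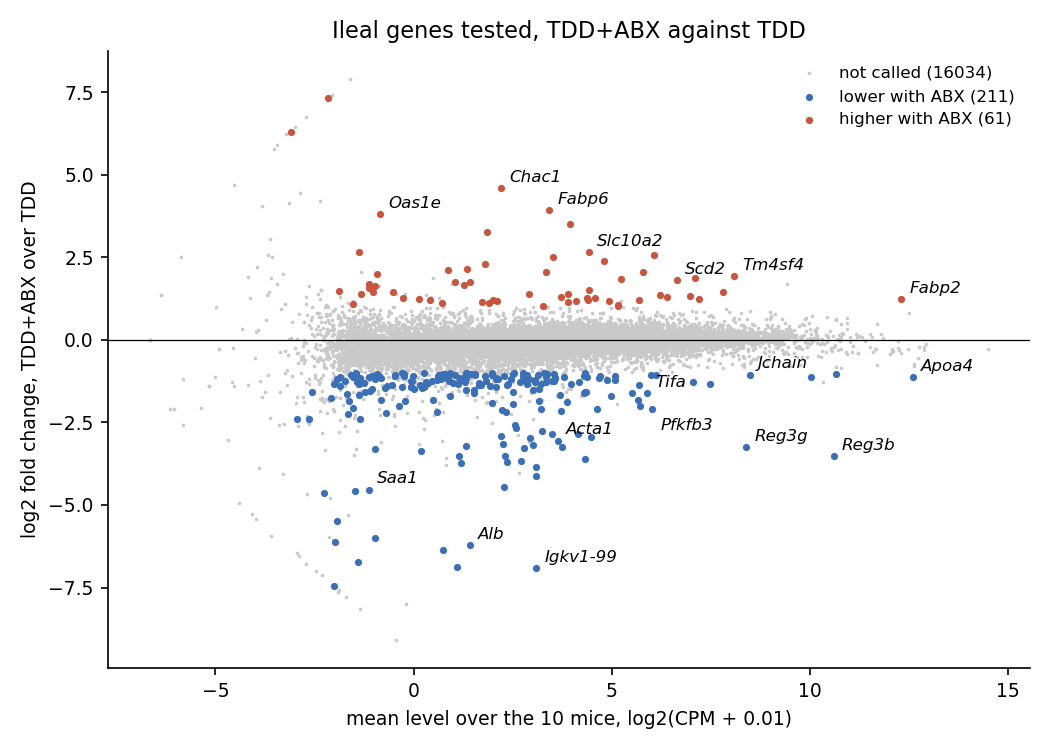
Log2 fold change of TDD+ABX over TDD (vertical axis) against mean log2 level over the 10 mice (horizontal axis) for the 16306 genes tested, 1 point per gene, with called genes in colour. The 211 genes lower with ABX outnumber the 61 higher, and labelled genes include the abundant Reg3b at -3.52 and Chac1 at 4.59.

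Antimicrobial lectins of the epithelium fell. The lectin Reg3b, which acts against Gram-negative bacteria and whose gene lies on chromosome 6 (78370657 to 78373466 of GRCm38), was at 3195, 2352, 577, 7580 and 518 CPM in TDD mice and at 96.6, 257, 471, 288 and 124 CPM in TDD+ABX mice. Its neighbour Reg3g (78466269 to 78468872), a lectin that kills Gram-positive bacteria, was at 523, 407, 118, 1875 and 113 CPM in TDD mice and at 43.9, 63.5, 101, 57.7 and 55.1 CPM in TDD+ABX mice. Each gene was lower in every TDD+ABX mouse than in the lowest TDD mouse, and TDD mice themselves spread over more than 10-fold. The log2 fold change was -3.52 (standard error 0.61, q = 0.00157, edgeR) for Reg3b and -3.24 (0.59, q = 0.00221) for Reg3g.

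Because these neighbouring genes moved together, their promoters are shown, each from 250 bases before to 50 bases after the start site (RefSeq, GRCm38.p6; Reg3b chr6:78370635-78370934, plus strand; Reg3g chr6:78468825-78469124, minus strand). Capitals mark the match to TATAAAA, searched on the gene strand only, and the longest run that both promoters share, 29 bases from -20 to 8 with the start site at 0. In Reg3g the match and the run are adjacent.
Reg3b promoter: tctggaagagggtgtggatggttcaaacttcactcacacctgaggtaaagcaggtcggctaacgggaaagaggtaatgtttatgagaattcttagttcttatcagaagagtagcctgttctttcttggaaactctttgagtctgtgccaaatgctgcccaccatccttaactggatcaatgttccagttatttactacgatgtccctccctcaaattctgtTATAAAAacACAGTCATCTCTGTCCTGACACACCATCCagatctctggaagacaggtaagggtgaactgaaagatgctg
Reg3g promoter: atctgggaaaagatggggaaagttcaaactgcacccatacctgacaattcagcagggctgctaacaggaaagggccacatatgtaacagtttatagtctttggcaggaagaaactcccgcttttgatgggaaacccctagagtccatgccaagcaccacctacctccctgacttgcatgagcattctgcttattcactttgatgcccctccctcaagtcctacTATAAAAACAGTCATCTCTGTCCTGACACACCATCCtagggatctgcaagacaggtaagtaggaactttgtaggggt
TATAAAA was present in 3.27% of 32851 mouse promoters of the same length, and the match describes the sequence only.

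In the list of 25 epithelial defence genes that holds both lectins, called genes numbered 4, all lower, and 7 were lower at q under 0.05 alone against none higher, with a list median of -0.26, while 1.29% of all genes were called lower and 8.3% were lower at q under 0.05. The other 2 called were Saa1 and Tifa. Tifa, an adaptor that links the bacterial sugar ADP-heptose to NF-kB signalling, was at 151, 73.7, 76.2, 79.2 and 65.7 CPM in TDD mice and 25.0, 32.6, 28.1, 27.9 and 31.2 CPM in TDD+ABX mice (log2 fold change -1.62, standard error 0.19, q = 0.000182, edgeR). Alpk1, the kinase that senses this sugar and signals through Tifa, fell from between 33.6 and 66.4 CPM to between 18.0 and 22.7 CPM (log2 fold change -1.22, standard error 0.14, q = 0.000182). Neither gene overlapped between the groups. The acute-phase gene Saa1 was above 1 CPM in 1 mouse only, TDD mouse 4 at 3.77 CPM (log2 fold change -4.53). Its call was lost in 6 of 10 other settings, limma-voom among them. TDD mouse 4 also held liver transcripts, and their part in the Saa1 value was not tested. Without the mice that had liver transcripts, 23 genes of this list were tested, with 3 called lower and 1 called higher. At q under 0.05 alone, 5 were then lower and 1 higher.

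Paneth cell products showed smaller differences. Of 21 tested, 20 had a negative log2 fold change, 4 were lower at q under 0.05 and 1 was called (median -0.40), beside 8.3% and 1.29% of all genes. The called gene was the pentraxin Mptx2, at 175, 295, 275, 383 and 148 CPM in TDD mice and 155, 130, 91.0, 51.5 and 76.5 CPM in TDD+ABX mice (log2 fold change -1.34, standard error 0.30, q = 0.00673, edgeR). Its paralog Mptx1 went the other way, from between 0.502 and 1.33 CPM to between 1.93 and 5.52 CPM (log2 fold change 2.15, q = 0.000339). Pigr, which carries IgA across the epithelium, was at 1290 to 2749 CPM in TDD mice and 1067 to 1294 CPM in TDD+ABX mice and was lower by 0.81 on the log2 scale (log2 fold change -0.81, q = 0.00286). Goblet and tuft cell lists held no called gene (18 and 15 tested, medians 0.04 and 0.42). In each list 2 genes were higher at q under 0.05 and none lower, beside 7.19% and 8.3% of all genes. Of the 15 tuft cell genes, 12 had a positive log2 fold change. Summed tuft cell markers were at 22.3 to 31.5 CPM in TDD mice and 34.7 to 55.8 CPM in TDD+ABX mice, with no overlap.

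**Figure D3:**
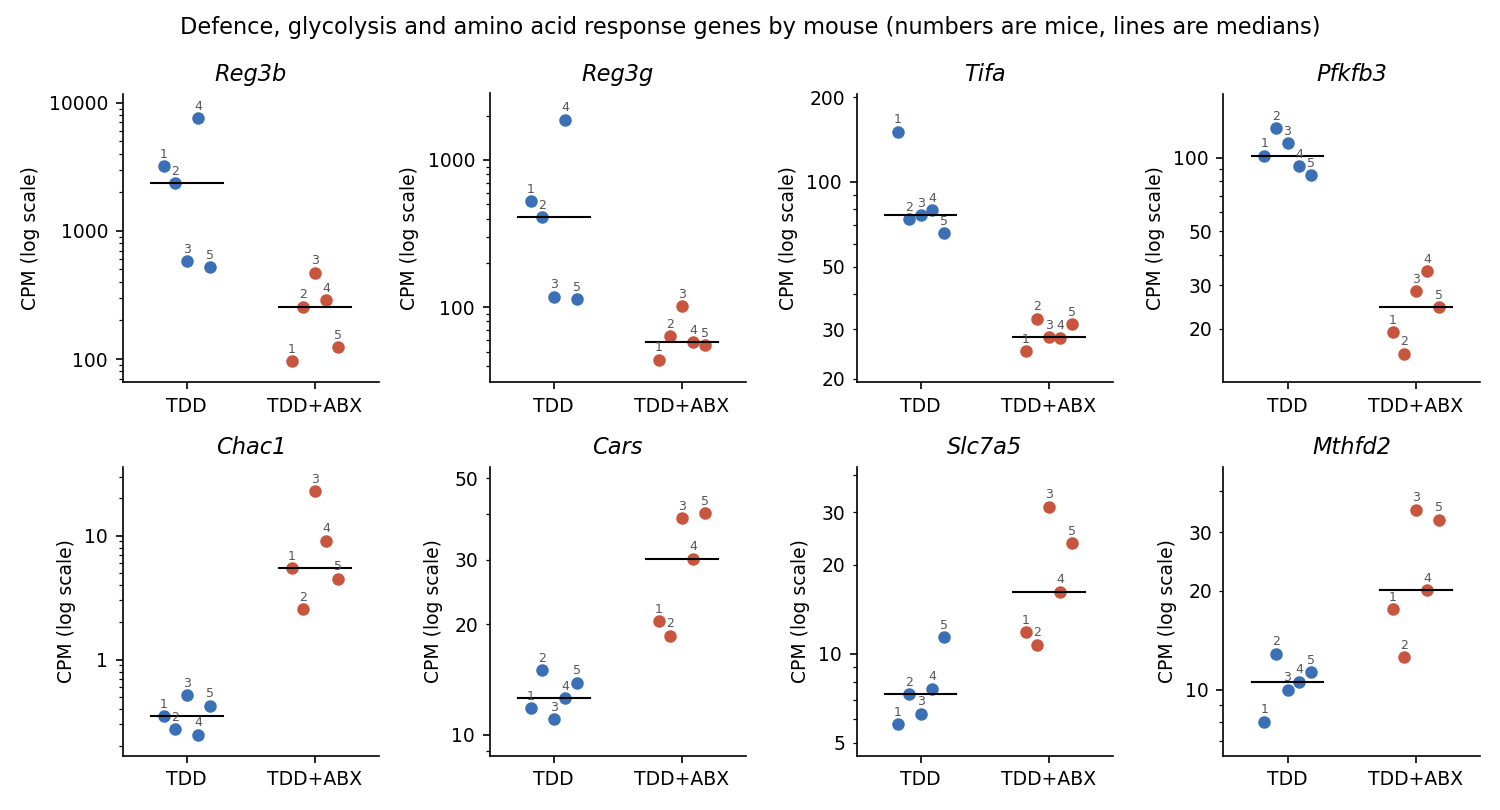
CPM on log axes of Reg3b, Reg3g, Tifa, Pfkfb3, Chac1, Cars, Slc7a5 and Mthfd2, with 1 numbered point per TDD or TDD+ABX mouse and lines at the group medians. The TDD+ABX mice lie below every TDD mouse for Reg3b, Reg3g, Tifa and Pfkfb3 and above every one for Chac1 and Cars.

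Several genes of the amino acid response rose. Chac1, an enzyme that breaks down glutathione and a target of ATF4 (chromosome 2, 119351229 to 119354381 of GRCm38), was at 0.351, 0.275, 0.518, 0.248 and 0.425 CPM in TDD mice. In TDD+ABX mice it was at 5.47, 2.54, 22.8, 9.13 and 4.50 CPM, so every treated mouse was above every untreated one. This was a 24.0-fold difference (log2 fold change 4.59, standard error 0.59, q = 0.000227, edgeR). The log2 fold change was 3.88 to 4.82 when single mice were left out. Its promoter is shown because the gene is a known ATF4 target (RefSeq, GRCm38.p6, chr2:119350992-119351291, plus strand). Capitals mark a match to TGATGNAAN, the shape of a C/EBP-ATF site, found on the opposite strand from -194 to -186.
Chac1 promoter: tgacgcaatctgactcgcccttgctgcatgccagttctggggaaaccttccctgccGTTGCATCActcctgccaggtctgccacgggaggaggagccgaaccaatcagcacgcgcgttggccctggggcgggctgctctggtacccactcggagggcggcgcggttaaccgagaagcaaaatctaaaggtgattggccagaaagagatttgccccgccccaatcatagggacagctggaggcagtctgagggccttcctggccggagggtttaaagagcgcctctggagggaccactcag
The motif, searched on both strands, was present in 3.95% of the 32851 promoters. Of Chac1, Cars, Mthfd2, Slc7a5 and Adm2, 3 had a promoter in the table, and 1 of them, Chac1, held a match. Such a match is no evidence of binding.

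The ATF4 response list of 35 genes held 3 called genes, all higher, and 8 that were higher at q under 0.05 against none lower (median 0.26), while 0.374% of all genes were called higher and 7.19% were higher at q under 0.05. Slc7a5, the light partner of a large neutral amino acid transporter that carries tryptophan, was at 5.80, 7.29, 6.27, 7.62 and 11.3 CPM in TDD mice and 11.8, 10.7, 31.4, 16.2 and 23.7 CPM in TDD+ABX mice (log2 fold change 1.29, standard error 0.27, q = 0.00485, edgeR). TDD+ABX mouse 2 lay just below the highest TDD mouse. Mthfd2, a mitochondrial folate enzyme, was at 8.0 to 12.9 CPM in TDD mice and 12.6 to 35.2 CPM in TDD+ABX mice, of which mouse 2 alone overlapped the TDD mice (log2 fold change 1.16, standard error 0.21, q = 0.00231). It fell just short of 2-fold without TDD+ABX mouse 3 (log2 fold change 0.98). Atf4 itself was higher by a log2 fold change of 0.54 (q = 0.00319), the cystathionine cleaving enzyme Cth by 0.84 (q = 0.00102) and the cationic amino acid transporter Slc7a1 by 0.85 (q = 0.00382). Other known targets did not pass the test, among them asparagine synthetase Asns (log2 fold change 0.20, q = 0.57), Trib3 (0.03, q = 0.946) and Ddit3 (0.34, q = 0.058).

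Aminoacyl-tRNA synthetases, which charge tRNAs with amino acids, were tested as a list of 19 genes. Of these, 18 had a positive log2 fold change, 10 were higher at q under 0.05 (7.19% of all genes were) and 1 was called (median 0.27). The called gene was cysteinyl-tRNA synthetase Cars, at 11.8, 15.0, 11, 12.6 and 13.9 CPM in TDD mice and 20.4, 18.6, 38.9, 30.2 and 40.2 CPM in TDD+ABX mice (log2 fold change 1.21, standard error 0.17, q = 0.000407, edgeR). Yars rose by a log2 fold change of 0.81 (q = 0.000334) and Aars by 0.68 (q = 0.000534). The tryptophanyl synthetase Wars was at 60.8 to 63.2 CPM in TDD mice and 59.8 to 75.5 CPM in TDD+ABX mice (log2 fold change 0.17, q = 0.127).

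Among genes of tryptophan use and of the aryl hydrocarbon receptor, which binds bacterial and host tryptophan products, 1 was called, where 1.67% of all genes were. None of 25 genes of tryptophan, kynurenine and serotonin metabolism was called. In this list 2 genes were called lower without TDD mouse 1 or without TDD+ABX mouse 5. In contrast, 1 was called higher without TDD+ABX mouse 4 or with B cell markers as a covariate. The monoamine oxidases Maoa (log2 fold change 0.73, q = 0.00317, edgeR) and Maob (0.93, q = 0.00143) were higher at under 2-fold, whereas the kynurenine pathway enzymes Qprt (-0.82, q = 0.0401) and Kynu (-0.63, q = 0.0118) were lower, but neither passed q under 0.05 without the mice that had liver transcripts. Tph1, which starts serotonin synthesis, was at 7.0 to 15.3 CPM in TDD mice and 6.50 to 13.5 CPM in TDD+ABX mice. Of 13 receptor genes and targets, the only call was Cyp1b1, at 5.32, 6.12, 5.90, 5.53 and 6.46 CPM in TDD mice and 1.61, 1.84, 2.46, 3.54 and 3.47 CPM in TDD+ABX mice (log2 fold change -1.18, standard error 0.27, q = 0.00811), a call lost with B cell markers as a covariate and with log2(TPM + 1). The most abundant gene of this list, the glutathione transferase Gstp1, rose from between 132 and 140 CPM to between 203 and 241 CPM (0.75, q = 0.000182), a change of under 2-fold with the groups far apart relative to their spread. The receptor Ahr itself overlapped fully between the groups (-0.02, q = 0.9), and the classical target Cyp1a1 was below 0.25 CPM in every mouse.

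Genes of ileal bile acid uptake rose. Slc10a2, the apical bile acid transporter, was at 6.52, 3.69, 8.80, 5.94 and 4.49 CPM in TDD mice and 36.3, 45.5, 58.3, 13.2 and 31.8 CPM in TDD+ABX mice (log2 fold change 2.65, standard error 0.43, q = 0.00108, edgeR). Fabp6, the ileal bile acid binding protein, was at 2.03, 0.298, 0.518, 3.91 and 0.238 CPM in TDD mice and 14.4, 22.1, 19.8, 3.34 and 40.8 CPM in TDD+ABX mice (log2 fold change 3.92, standard error 1.03, q = 0.0163). TDD+ABX mouse 4 was the lowest treated mouse in both and overlapped the TDD mice in Fabp6, whose call was lost with limma-voom (q = 0.086). Fgf15, the FXR-induced hormone that lowers bile acid synthesis in the liver, was at 11.9, 8.66, 13.5, 4.32 and 6.90 CPM in TDD mice and 11.9, 104, 11.1, 17.3 and 91.1 CPM in TDD+ABX mice (log2 fold change 2.38, standard error 0.60, q = 0.0134). Only TDD+ABX mice 2 and 5 were far above the TDD range, and the call was lost without the mice that had liver transcripts and with limma-voom. These 3 were the called genes of 21 tested in the bile acid list (median 0.02), beside 0.374% of all genes called higher, and the basolateral exporters Slc51a (log2 fold change 0.26, q = 0.291) and Slc51b (-0.10, q = 0.616) did not pass.

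Transporters and enzymes of the enterocyte moved in both directions, and the brush border list of 38 genes held 2 called higher and 1 called lower, beside 0.374% and 1.29% of all genes. The fatty acid binding protein Fabp2 was at 2878, 2712, 3211, 3590 and 2698 CPM in TDD mice and 7329, 8043, 7018, 4516 and 8345 CPM in TDD+ABX mice, a 2.34-fold rise (log2 fold change 1.22, standard error 0.18, q = 0.00053, edgeR). The sulfate transporter Slc13a1 rose from between 14.9 and 28.4 CPM to between 41.7 and 120 CPM (log2 fold change 2.04, q = 0.000585), and the membrane protein Tm4sf4 rose from between 81.3 and 152 CPM to between 322 and 581 CPM (1.93, q = 0.000227). Neither overlapped. The retinaldehyde dehydrogenase Aldh1a1, which makes retinoic acid, rose from between 80.8 and 149 CPM to between 202 and 375 CPM (1.46, q = 0.000391), and the potassium channel Kcnj13 (2.12, q = 0.000966) and Fam151a (2.58, q = 0.00168) were likewise higher in all 5 treated mice. The nucleoside transporter Slc28a1 rose by a log2 fold change of 1.20 (q = 0.0193), with TDD+ABX mouse 4 inside the TDD range. This call was lost without the mice that had liver transcripts, with the replicate number as a block and without TDD+ABX mouse 1.

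Several transporters and sugar enzymes fell. The related organic anion transporters Slc22a13 (log2 fold change -3.20, standard error 0.48, q = 0.000556, edgeR) and Slc22a13b (-2.99, 0.38, q = 0.000222) were lower in every treated mouse, although reads may be split between such paralogs. Fbp1, an enzyme of glucose synthesis, was at 108, 78.8, 59.6, 76.3 and 93.6 CPM in TDD mice and 13.5, 13.5, 16.9, 49.1 and 11.4 CPM in TDD+ABX mice (log2 fold change -2.0, standard error 0.37, q = 0.00226). TDD+ABX mouse 4 again lay nearest to the untreated mice. Pfkfb3, which makes the activator of glycolysis fructose 2,6-bisphosphate, was at 102, 132, 115, 92.4 and 84.7 CPM in TDD mice and 19.3, 15.8, 28.5, 34.4 and 24.4 CPM in TDD+ABX mice (-2.10, standard error 0.26, q = 0.000222). Glucose 6-phosphatase G6pc fell by 1.59 on the log2 scale (q = 0.00861), and the folate transporter Slc46a1 fell by 1.14 (q = 0.0201), a call lost without the mice that had liver transcripts.

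Of the genes that handle sucrose and fructose, 3 were chosen after their values were seen, so their shared direction says nothing about such genes as a group. The sucrose-cleaving enzyme Sis was at 7267 to 8546 CPM in TDD mice and 4056 to 6272 CPM in TDD+ABX mice (log2 fold change -0.74, q = 0.0194, edgeR). The fructose transporter Slc2a5 (-0.61, q = 0.0254) and the fructose enzyme Khk (-0.59, q = 0.01) were also lower, with no overlap between the groups in each of these 3 genes. The brush border list held 7 genes higher and 6 lower at q under 0.05, beside 7.19% and 8.3% of all genes. Without the mice that had liver transcripts, 4 were higher and 1 was lower. ABX water held sucrose, so antibiotics and this sugar cannot be told apart here if untreated mice drank plain water.

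**Figure D4:**
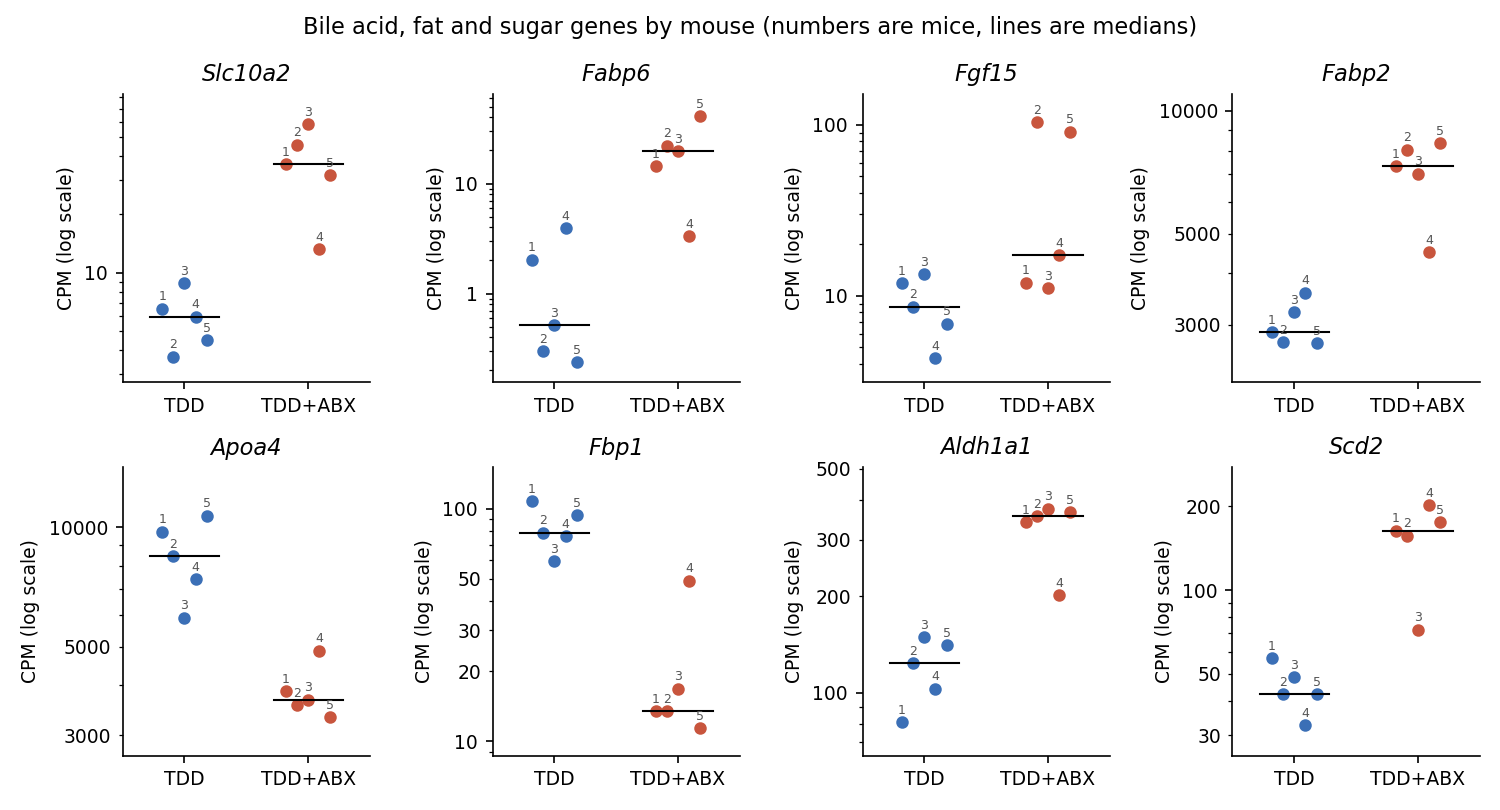
CPM on log axes of the uptake and metabolic genes Slc10a2, Fabp6, Fgf15, Fabp2, Apoa4, Fbp1, Aldh1a1 and Scd2, with 1 numbered point per TDD or TDD+ABX mouse and lines at the group medians. TDD+ABX mouse 4 lies nearest to the TDD mice for Fabp2, Fbp1 and Aldh1a1, and Fgf15 is raised in TDD+ABX mice 2 and 5.

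Fat and fasting genes followed the same mixed course. Apoa4, an apolipoprotein of chylomicrons, was at 9743, 8456, 5914, 7408 and 10683 CPM in TDD mice and 3861, 3564, 3678, 4888 and 3321 CPM in TDD+ABX mice (log2 fold change -1.13, standard error 0.34, q = 0.0317, edgeR). The groups did not overlap, but the call was lost in 7 of the 20 fits that left out 1 mouse and in 6 of 13 other settings, among them limma-voom, the replicate block and the fit without the mice that had liver transcripts. Apoc2 fell by 1.29 (q = 0.0198, lost without the mice that had liver transcripts), and the desaturase Scd2 rose by 1.80 (q = 0.000408). Of 24 genes of fasting and fatty acid oxidation, 4 were called lower and 1 higher, beside 1.29% and 0.374% of all genes. Among the lower ones were the peroxisomal thiolase Acaa1b (-2.08, q = 0.00121), the pyruvate dehydrogenase kinase Pdk4 (-1.71, q = 0.00637) and G6pc. Pdk4 was at 33.4 to 64.8 CPM in TDD mice and 11.6 to 23.7 CPM in TDD+ABX mice. The study reported that mice on TDD lost far less weight with ABX than without it. Antibiotics and body weight therefore cannot be told apart here, and the part of weight in these genes was not tested.

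Of 28 cholesterol synthesis and uptake genes, 16 were higher and 3 lower at q under 0.05, beside 7.19% and 8.3% of all genes. The 16 were 5 without the mice that had liver transcripts. The regulator Insig1, which retains the sterol sensor in the endoplasmic reticulum, was at 47.8 to 58.1 CPM in TDD mice and 57.5 to 102 CPM in TDD+ABX mice (log2 fold change 0.76, q = 0.000962, edgeR). The 3 lower genes were the sterol exporters Abca1, Abcg5 and Abcg8. The list median was 0.34.

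Among 45 cytochrome P450 and conjugation genes, 4 were called higher and 2 lower (median 0.26), beside 0.374% and 1.29% of all genes, and 7 were called higher with B cell markers as a covariate. The carboxylesterases Ces2a (log2 fold change 1.23, q = 0.00027, edgeR) and Ces1f (1.84, q = 0.00372) were higher, and Cyp3a44 was at 0.828 to 3.39 CPM in TDD mice against 0.165 to 0.239 CPM in TDD+ABX mice (-3.38, standard error 0.59, q = 0.00172).

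Plasma cell and immunoglobulin genes fell. Of 19 genes of IgA plasma cells and IgA transport, 8 were called lower and none higher (median -0.92, against 1.29% called lower over all genes). Immunoglobulin segments and constant regions accounted for 45 of the 211 genes called lower (21.3%) and 1 of the 61 called higher, of 204 such genes tested. The IgA heavy chain Igha was at 1257, 2694, 2384, 2373 and 2151 CPM in TDD mice and at 919 to 1214 CPM in TDD+ABX mice (log2 fold change -1.05, standard error 0.20, q = 0.00265, edgeR). Jchain, which joins IgA into dimers, was at 290, 631, 501, 502 and 476 CPM in TDD mice and 228, 276, 241, 194 and 216 CPM in TDD+ABX mice (-1.05, 0.19, q = 0.00228). Both were separated between the groups, with TDD mouse 1 the lowest of its group. Plasma cell Mzb1 (-1.27, q = 0.00315) and Irf4 (-1.22, q = 0.0103) were lower, whereas Sdc1, which plasma cells share with epithelium, was higher (0.40, q = 0.00325). The number called on this list was 3 without the mice that had liver transcripts, none with B cell markers as a covariate, and 5 to 10 when single mice were left out. At q under 0.05 alone, 11 genes of the list were lower and 2 higher, beside 8.3% and 7.19% of all genes. Without the mice that had liver transcripts, 7 were lower and 1 higher (median -0.796). With the covariate, 10 were lower and 1 higher (median -0.531), so that these differences were then under 2-fold. In tissue pieces, fewer cells of a type and less RNA per cell cannot be told apart.

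Variable segments depend on the B cell clones of each mouse, and near-identical segments can share reads. Igkv1-99 was at 84.1 CPM in TDD mouse 2 and at most 0.298 CPM in the other 9 mice, and Igkv14-130 was at 20.9 CPM in TDD mouse 2 and at most 0.10 CPM elsewhere. Both calls were lost with limma-voom and without TDD mouse 2, where the log2 fold change of Igkv1-99 turned to 0.75. Igkv15-103 was at 2.76 to 46.4 CPM in TDD mice and 0.935 to 3.39 CPM in TDD+ABX mice (log2 fold change -2.78, standard error 0.58, q = 0.00471, edgeR). The segment called higher, Ighv14-2, was at 71.1 and 62.6 CPM in TDD+ABX mice 1 and 2 and at 1.23 to 3.35 CPM in the others of that group. Its call was lost in 5 of 20 fits that left out 1 mouse and in 6 of 12 other settings.

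B and T cell genes were lower in most treated mice without passing the test in most cases. All 25 B cell and follicle genes had a negative log2 fold change (median -1.44), but none was called and 1 had q under 0.05. Cd22 was at 1.86, 23.5, 18.0, 35.5 and 29.9 CPM in TDD mice and 3.86, 6.72, 3.0, 1.87 and 23.3 CPM in TDD+ABX mice (log2 fold change -1.50, standard error 0.72, q = 0.165, edgeR). TDD mouse 1 and TDD+ABX mouse 5 crossed over, and 15 of these genes were called when TDD+ABX mouse 5 was left out and 5 when TDD mouse 1 was. All 29 T cell genes had a negative log2 fold change, 10 had q under 0.05 and 3 were called (Cd5, Cd6 and Cd247, median -0.77 over the list), while 8.3% of all genes were lower at q under 0.05 and 1.29% were called lower. The 10 were 5 without TDD+ABX mouse 4 and 2 without the mice that had liver transcripts, with none called in either case, and 0 to 5 were called when single mice were left out. Each of the 3 calls was lost in 8 or 9 of the 20 fits that left out 1 mouse.

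Regulatory T cell genes were low in abundance. Foxp3, the defining factor of regulatory T cells, was at 0.151, 0.779, 0.683, 1.05 and 0.816 CPM in TDD mice and 0.124, 0.220, 0.248, 0.139 and 0.526 CPM in TDD+ABX mice (log2 fold change -1.48, standard error 0.45, q = 0.0323, edgeR). TDD mouse 1 lay inside the treated range, and the call was lost in 8 of 20 fits that left out 1 mouse. Il2ra, the high-affinity interleukin 2 receptor chain, was at 1.38 to 2.67 CPM in TDD mice and 0.756 to 1.34 CPM in TDD+ABX mice (-1.20, q = 0.00228) and kept its call in all 20 fits. Ctla4 was lower by 1.39 on the log2 scale (log2 fold change -1.39, q = 0.0181), while Il1rl1, the interleukin 33 receptor, was higher (1.39, q = 0.0349) in 5 of 5 treated mice than in every TDD mouse. The Il1rl1 call was lost in 6 of 20 fits that left out 1 mouse. The list of 17 genes held 3 lower calls, beside 1.29% of all genes. All 3 were lost without the mice that had liver transcripts and, likewise, with B cell markers as a covariate, where 1 other gene was called lower. Leaving out single mice gave 1 to 5 lower calls, 1 without TDD+ABX mouse 3 and 5 without TDD mouse 1 or without TDD+ABX mouse 5.

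Lists of antigen presentation and innate immunity held few calls. None of 24 macrophage and dendritic cell genes was called, although 10 were lower at q under 0.05 (median -0.30), and none of 16 genes of MHC class II presentation was called, although 7 were lower at q under 0.05 (median -0.46), where 8.3% of all genes were. Without the mice that had liver transcripts these numbers were 1 and 0, with B cell markers as a covariate they were 2 and 1, and without TDD+ABX mouse 4 they were 3 and 3. Without TDD+ABX mouse 5, 2 genes of the first list and 5 of the second were called lower. Lyz2 was lower by a log2 fold change of -0.84 (q = 0.0239, edgeR) and Cd74 by -0.50 (q = 0.0342), with TDD mouse 1 inside the treated range for both. Of 39 pattern recognition and inflammasome genes, 5 were lower and 4 higher at q under 0.05, beside 8.3% and 7.19% of all genes, and 3 gasdermin C genes were called higher, beside 0.374% of all genes. Of 28 chemokine genes, only Cxcl2 was called (-2.41, q = 0.0205), at under 1 CPM in every mouse, and its call was lost in 4 of 11 other settings, while 4 genes were called lower without TDD+ABX mouse 5. The caspase Casp4, which senses bacterial lipopolysaccharide in the cytosol, was at 21.3 to 30.1 CPM in TDD mice and 11.8 to 17.8 CPM in TDD+ABX mice (-0.85, q = 0.000534), and the epithelial cytokine Il18 was lower in all 5 treated mice (-0.82, q = 0.00158).

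Some gasdermin C and oligoadenylate synthetase genes rose. Gsdmc4, a pore-forming protein gene of the epithelium, was at 4.79, 4.90, 1.66, 3.30 and 2.40 CPM in TDD mice and 34.8, 9.14, 9.59, 10.4 and 32.4 CPM in TDD+ABX mice (log2 fold change 2.51, standard error 0.55, q = 0.00645, edgeR). Gsdmc3 (2.29, q = 0.017) and Gsdmc2 (2.04, q = 0.0157) were also higher, with TDD+ABX mice 1 and 5 the highest in each, but the 3 genes are close paralogs whose reads may be shared. The calls of Gsdmc3 and Gsdmc2 were lost with limma-voom and without the mice that had liver transcripts, and that of Gsdmc3 also without TDD+ABX mouse 1 and with log2(TPM + 1). Of 48 interferon-stimulated genes, 3 were called, all higher and all members of the Oas1 family (list median 0.27), beside 0.374% of all genes. Oas1a was at 21.4, 20.3, 15.2, 21.8 and 37.9 CPM in TDD mice and 55.1, 30.8, 58.7, 42.5 and 52.9 CPM in TDD+ABX mice (1.04, standard error 0.33, q = 0.0379). This call was lost in 7 of 20 fits that left out 1 mouse, whereas Oas1g (1.28, q = 0.0188) and Oas1e (3.81, q = 0.0105) kept theirs in these fits. Oas1a and Oas1g lost their calls with B cell markers as a covariate. With limma-voom the calls of Oas1a and Oas1e were lost, and with log2(TPM + 1) that of Oas1e was. Guanylate-binding proteins, which interferon gamma also induces, had only negative log2 fold changes (10 of 10, median -0.38), with 5 lower at q under 0.05, where 8.3% of all genes were. The 5 were none without the mice that had liver transcripts and 2 with the covariate. Gbp10 was called at under 1 CPM, and its call was lost in 5 of 20 fits that left out 1 mouse and in 7 of 13 other settings.

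Lists of other cells and programs held few changes. All 26 proliferation genes had a positive log2 fold change (median 0.34) and 8 were higher at q under 0.05, among them Pcna (0.35, q = 0.00689, edgeR), beside 7.19% of all genes, but none was called and Mki67 overlapped between the groups (0.24, q = 0.436). The 8 were 3 without TDD mouse 1, 13 without TDD+ABX mouse 4 and 12 without TDD+ABX mouse 5. None of 16 crypt stem cell genes or 17 enteroendocrine hormones passed q under 0.05, nor any smooth muscle, collagen, mast cell or pancreas and fat tissue gene. Without TDD+ABX mouse 4, 2 mast cell genes were called higher. Of 22 genes of MHC class I presentation 3 were lower at q under 0.05, a share above the 8.3% of all genes. The 3 were 1 without the mice that had liver transcripts. Of 19 enteric neuron and glia genes 1 was lower, and of 22 circadian genes 1 was lower, shares below the 8.3% of all genes. Of 29 claudin and tight junction genes 1 was higher, a share below the 7.19% of all genes. In the glucocorticoid list, 2 of 21 genes were called lower, beside 1.29% of all genes, and Zbtb16, a hormone-induced transcription factor, was at 7.0, 23.7, 20.6, 34.6 and 20.6 CPM in TDD mice and 3.31, 4.40, 11.1, 3.54 and 1.46 CPM in TDD+ABX mice (-2.16, standard error 0.53, q = 0.0121). The Zbtb16 call was lost without the mice that had liver transcripts and with B cell markers as a covariate. All 5 red blood cell genes were positive (median 0.84), with 3 at q under 0.05, none without the mice that had liver transcripts and 5 without TDD mouse 1.

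**Figure D5:**
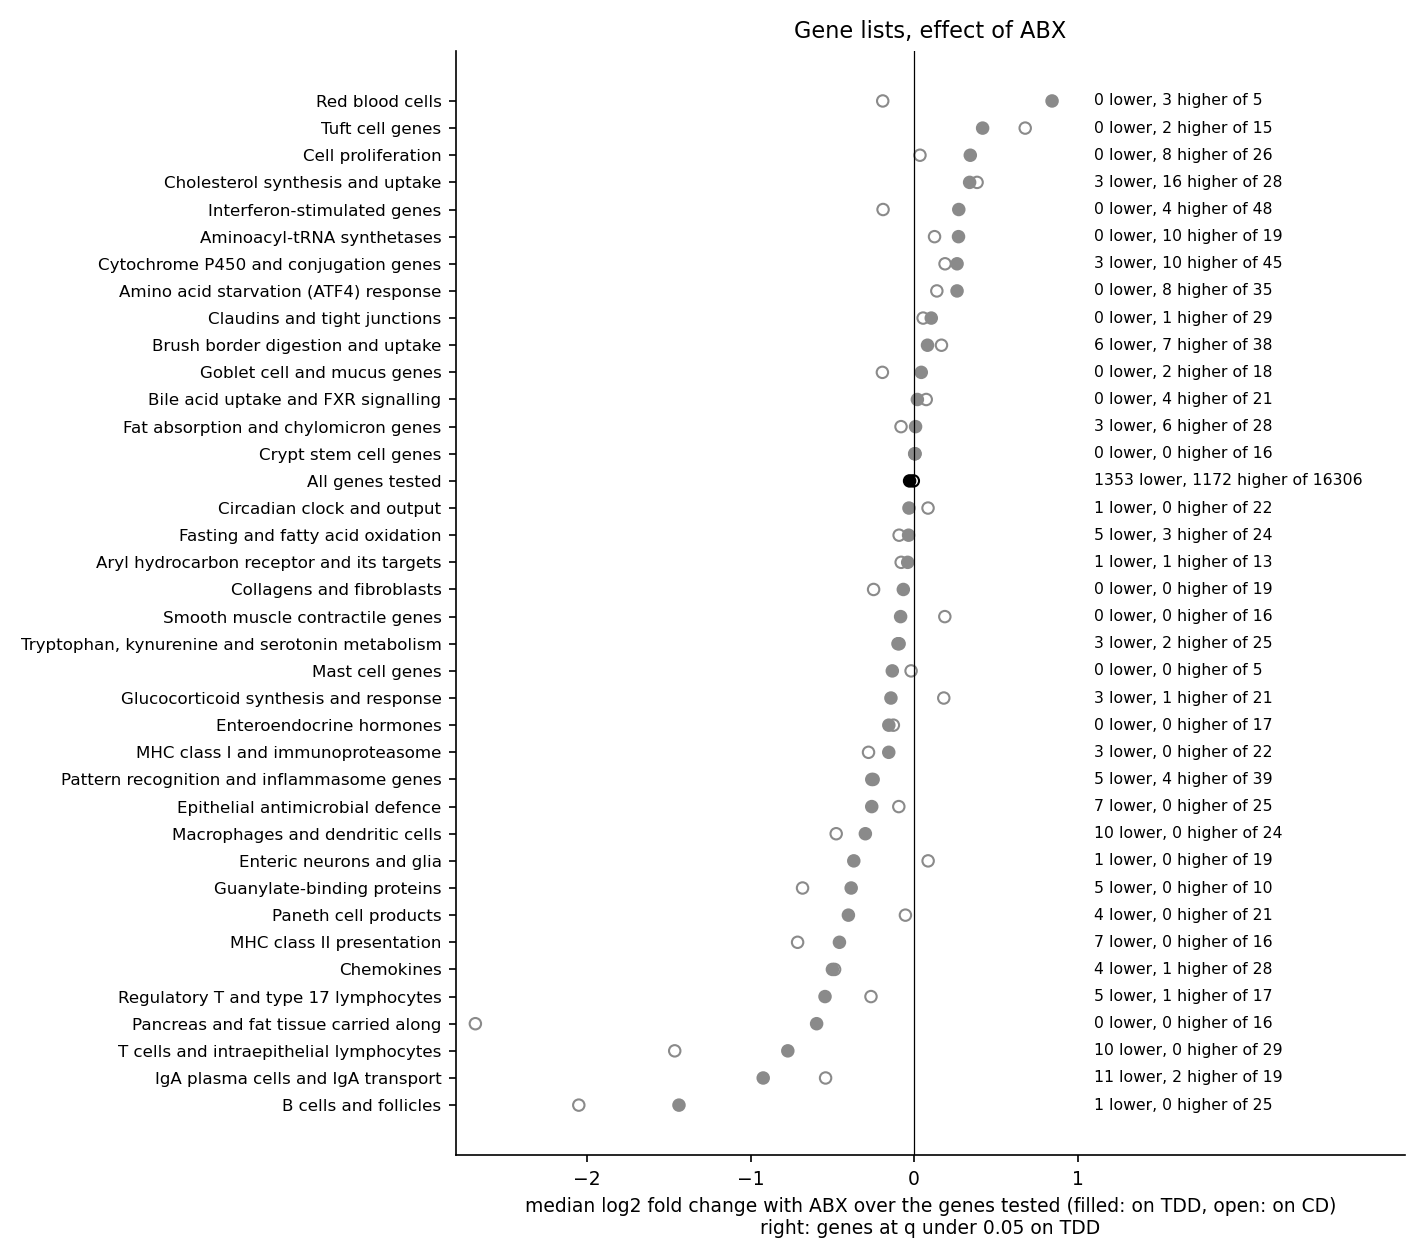
Median log2 fold change with ABX (horizontal axis) of the 37 gene lists, with filled points for TDD-fed and open points for CD-fed mice, and at the right the numbers of members higher and lower at q under 0.05 on TDD. B cell, plasma cell and T cell lists lie lowest on TDD, with medians of -1.44, -0.92 and -0.77.

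The antibiotic effect on TDD was then set beside that on CD, which was measured in 10 other mice. ABX changed 375 genes in CD-fed mice (2.3% of genes tested), 99 higher (0.607%) and 276 lower (1.69%). A set of 103 genes, 28 higher and 75 lower, was called with the same direction on both diets, which made 37.9% of the genes called on TDD and 27.5% of those called on CD. Of the 272 genes called on TDD, 233 had the same sign on CD, and 6 were called in the opposite direction, 3 of them being the liver transcripts Mug1, Alb and Mup20, which were high in TDD mice 4 and 5 and in CD+ABX mice 1 and 2. Fabp2 rose alike on both diets (log2 fold change 1.22 on TDD and 1.20 on CD, q = 0.000487 on CD, edgeR). Slc10a2 (4.07 on CD), Slc13a1 (3.20) and Fbp1 (-3.22) also moved in the same direction on CD.

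A direct test of the difference between both antibiotic effects called 4 genes (0.0245% of genes tested), of 1452 with an unadjusted p under 0.05. Chac1 had a difference of 5.01 (standard error 0.78, q = 0.0433, edgeR), with 0.619 to 2.39 CPM in CD mice and 0.617 to 1.87 CPM in CD+ABX mice, where it did not pass the test (log2 fold change -0.42, q = 0.683). Fkbp5, a chaperone induced by glucocorticoids, had a difference of -1.92 (standard error 0.33, q = 0.0433), rising with ABX on CD (1.55, q = 0.000544) and not passing on TDD (-0.37, q = 0.29). It was at 187 to 201 CPM in TDD mice and 98.1 to 184 CPM in TDD+ABX mice. The granzyme gene Gzmk had a difference of 4.98 (q = 0.0438) and Igkv15-103 one of -4.80 (q = 0.0433). Reg3b fell by 3.52 on TDD and had a log2 fold change of -1.16 on CD (q = 0.192), but the difference between the diets was not past the threshold (-2.36, standard error 0.79, q = 0.32). Of the 163 genes called on TDD and not on CD, 1 was called in the test of the difference. These 4 calls rested on the settings used, since Chac1 had q between 0.0125 and 0.0996 when single mice were left out and none of the 4 was called with limma-voom.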

How the data were processed

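Poly-A RNA of 20 ileum samples, 1 per mouse, was sequenced on an Illumina NovaSeq instrument. Per the labels and the study's methods, the authors assigned reads to mouse transcripts (GRCm38) with kallisto 0.44.0 and deposited estimated counts per gene, which are not normalized, and 1 table per mouse with estimated counts and TPM of every transcript. Reads that match several genes are split by this method, so values of paralogs and immunoglobulin segments are uncertain. Gene-level estimated counts were whole numbers as deposited and were scaled by TMM. Genes had to reach 0.5 CPM in 1 mouse or more, which 16306 did, and edgeR 4.0.16 (R 4.3.3) was applied as a quasi-likelihood test, with the 4 groups of 5 mice in 1 fit and the Benjamini-Hochberg adjustment over all genes, called at q under 0.05 and at least 2-fold. Standard errors were derived from the fold change and its F statistic. Depth per mouse, from 37664356 counts upwards in the mice compared, leaves spread between mice as the main error, except for genes under 1 CPM. Identifiers were matched to GENCODE M21 for 34641 of 35204 genes. TPM values, summed per gene, limma 3.58.1 and DESeq2 1.42.0 were used in alternatives. The lists and members were chosen with earlier results of these data known. Genes named were those in the 10 highest and 10 lowest called fold changes without overlap, the 8 most abundant called, up to 4 called per list (or the 2 most abundant where none was), and the extremes of the interaction and of immunoglobulin segments, leaving out genes with clone or predicted names. Other genes named in the text were chosen after their values were seen. The study used fewer mice in some of its displays without naming those left out, and all 20 were used here. Some items are not reported here.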

Additional observations from a re-analysis of the deposited data

Results flagged for a closer look

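In single mice, 24 values of named genes lay farther from the rest of their group of 5 than Dixon's 95% limit allows, on the scale log2(CPM + 0.5). All 103 named genes were checked, each in TDD mice and again in TDD+ABX mice. Chance alone places about 5% of such checks past the limit, and genes that vary together in 1 mouse were counted separately. In TDD+ABX mouse 4 these were Fbp1 at 49.1 CPM, Pbx4 at 5.73 CPM, Fabp2 at 4516 CPM, Aldh1a1 at 202 CPM, Maoa at 973 CPM, Maob at 208 CPM, Slc46a1 at 28.0 CPM and Igkv15-103 at 0.935 CPM. The first 7 lay nearest to the TDD mice among the treated mice. In TDD mouse 1 they were Pbx4 at 12.1 CPM, Tifa at 151 CPM, Slc12a2 at 137 CPM, Mki67 at 82.7 CPM, Cd22 at 1.86 CPM, Cd5 at 0.401 CPM, Cd74 at 191 CPM and Ces1f at 4.39 CPM, and its B cell markers were also the lowest of its group. TDD mouse 4 stood apart in Saa1 at 3.77 CPM and Ptgs1 at 22.3 CPM, TDD mouse 5 in Cxcl2 at 0.612 CPM, and TDD mouse 2 in Igkv1-99 at 84.1 CPM and Igkv14-130 at 20.9 CPM. TDD+ABX mouse 3 stood apart in Scd2 at 72.1 CPM and Pdk4 at 23.7 CPM, and TDD+ABX mouse 5 in Spib at 22.6 CPM.

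The edgeR interaction test called a difference in the antibiotic effect between TDD and CD for Chac1, by 5.01 on the log2 scale. It also called Fkbp5, Gzmk and Igkv15-103, by -1.92, 4.98 and -4.80. These calls depended on the settings, and none was made with RLE scaling or limma-voom. Gzmk was at 0.618 to 8.17 CPM in CD mice and at most 0.132 CPM in CD+ABX mice, while all 10 TDD-fed mice were at 0.186 to 0.357 CPM.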

How the results depend on the processing

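The number of genes called on TDD, 272, was 264 with RLE scaling, 313 with DESeq2, 251 with limma-voom and 252 with the replicate number as a block. It was 2525 without the fold limit, 100 with limma on log2(TPM + 1), 145 without the 4 mice with liver transcripts and 176 with B cell markers as a covariate. The last pair of settings was chosen after seeing the data. Leaving out 1 mouse gave 173 to 427 genes. Higher genes were 22.4% of calls, 46.0% with log2(TPM + 1), 42.3% with log2(TPM + 0.1) and 43.2% with the covariate. On CD, the 375 calls became 2083 without the fold limit and 137 with log2(TPM + 1), and 284 to 405 without single mice. The 103 genes shared by both diets became 978 without the fold limit, 37 and 63 with log2(TPM + 1) and log2(TPM + 0.1), 49 without the mice with liver transcripts and 68 with the covariate, and 58 to 166 without single mice. The 4 calls of the difference between diets became 0 with RLE scaling, limma-voom, the replicate block, immunoglobulin segments removed or the liver transcript mice left out, 1 with either other filter and 51 with DESeq2, and 0 to 14 without single mice. The causes were not tested.

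Directions reversed for genes whose levels in TDD+ABX and TDD mice passed no test and, without TDD mouse 2, for Igkv1-99. Without the mice with liver transcripts, log2 fold changes turned to 0.0323 for Chgb, 0.11 for Chga and 0.0052 for Slc12a2. With TPM at pseudocounts of 1 and 0.1 they turned to 0.0633 and 0.0647 for Chga, 0.0236 and 0.0244 for Slc12a2, 0.0203 and 0.0203 for B2m, 0.0487 and 0.0488 for H2-K1, 0.0937 and 0.0937 for Epcam and 0.028 and 0.0849 for Gzmk. With the covariate they turned to 0.0412 for Chga and 0.19 for Spib. Epcam turned to 0.0072 with RLE scaling and DESeq2, 0.00798 with the stricter filter and 0.0065 with no filter. When single mice were left out, ranges were -0.14 to 0.0113 for Chga, -0.10 to 0.14 for Olfm4, -0.14 to 0.0088 for Slc12a2, -0.13 to 0.01999 for B2m, -0.0925 to 0.0176 for H2-K1, -0.0686 to 0.0629 for Epcam, -0.37 to 0.0607 for Myh11 and -7.40 to 0.75 for Igkv1-99.

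Replicate numbers showed no sign of pairing the mice, although a check on 5 pairs cannot exclude it. Deviations of same-numbered TDD and TDD+ABX mice correlated at -0.417 to 0.148, and 1 of 5 TDD+ABX mice correlated best with its own number. Genes near or under 1 CPM, such as Foxp3, Cxcl2 and Gbp10, had few counts, and differences between 5 and 5 mice of their size were called or lost with 1 mouse.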

Other observations

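Among genes with no overlap between the groups, skeletal actin Acta1 was at 9.57 to 49.9 CPM in TDD mice and 1.29 to 5.67 CPM in TDD+ABX mice (log2 fold change -3.05, standard error 0.67, q = 0.00623, edgeR), while smooth muscle myosin Myh11 was at 268 to 863 and 238 to 866 CPM. The homeobox gene Pbx4 was at 7.93 to 12.1 CPM in TDD mice and 1.30 to 5.73 CPM in TDD+ABX mice (-1.94, q = 0.00282). Both fell on CD as well (log2 fold changes of -3.42 and -2.28). The phospholipase gene Pla2g4c was at 0.595 to 0.766 CPM in TDD mice and rose to 9.59, 1.34, 1.84, 2.11 and 17.4 CPM in TDD+ABX mice 1 to 5 (3.25, standard error 0.83, q = 0.0145), a call lost with limma-voom and with log2(TPM + 1). TDD+ABX mice 1 and 5, the highest for Pla2g4c, were also the highest for Gsdmc2, Gsdmc3 and Gsdmc4. The mast cell protease Mcpt1 was at 9.61 CPM in TDD+ABX mouse 1 and at 0.517 to 2.37 CPM in the other 9 mice (1.70, q = 0.0626). Its log2 fold change ran from 0.53 to 1.99 when single mice were left out. It was called without TDD+ABX mouse 2, without TDD+ABX mouse 4 and with DESeq2.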
